A study of Mus musculus with 22 samples.

Results

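The 14 samples described here are the in vivo arm of a study of 22 samples of mouse tissue, taken by their titles: 7 pieces of shortened and 7 pieces of stretched tissue, 1 of each from every animal. Loose subcutaneous connective tissue from the trunk was used, and the mice were C57BL/6 males of 19 to 24 g with no genetic change named. Within an animal the pieces were assigned to stretch or shortening at random, and the remaining 8 samples came from 4 animals whose tissue was held ex vivo. The labels state no force and no duration of stretch, and there was no piece at rest length, so each value is stretched against shortened tissue.

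Loose connective tissue is a layer of fibroblasts in a collagen and hyaluronan matrix that lets the skin slide over the muscle below, with small vessels, nerves, macrophages, mast cells and fat cells in it. The thin skin muscle of the mouse, the panniculus carnosus, runs beside this layer, and fat lies within it, so a piece of tissue can hold more or less of both. The results below therefore turn to genes other than the markers of skeletal muscle, of fat and of body position, and give the muscle and fat signal beside them.

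RNA was labelled as biotin cRNA and measured on arrays, and values are log2 signals of probes. A log2 difference of 1 is a doubling. The median signal of an in vivo sample lay between 7.28 and 7.41. Each animal's difference is stretched minus shortened, and the error beside a mean difference is its standard error (SE) from limma, with animals as blocks (n = 7 animals). Markers of the labelled tissue were present, since the collagen genes Col1a1 (13.03 in shortened tissue) and Col3a1 (13.69) and the matrix proteoglycan gene decorin, Dcn (14.07), gave signals near the top of the scale, which ended at 14.4. RNA quality differed between animals: the 3' Gapdh control probe exceeded the 5' one by 0.111 to 0.272 in the first 3 animals, and in the other 4 by 0.866 to 3.61. On average it did not differ detectably between the pieces (-0.22 ± 0.98, SD, n = 7, exact two-sided sign-flip p = 0.656). Single pairs were not matched, with gaps in both directions. Animal 7 had 2.96 in the shortened and 0.866 in the stretched piece, and animal 4 had 2.83 and 3.61.

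No probe passed the test. Of 22626 probes 0 (0%) had a limma p under 0.05 after Benjamini-Hochberg adjustment, and the smallest adjusted p was 0.153. At an unadjusted p under 0.05 there were 4373 probes (19.3%), of which 1799 (7.95%) were higher and 2574 (11.4%) lower in stretched tissue. That number was 2582 without animal 3 and 2777 without animal 5. Over the 12393 genes, each represented by 1 probe, 5537 were higher and 6856 lower, with a median difference of -0.01. Few genes had 1 direction in every animal, and 191 (1.54%) were higher and 538 (4.34%) were lower in 7 of 7. What follows are values of genes that were not called, and "higher" and "lower" refer to the mean difference.

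Muscle and fat signal differed between the pieces of an animal. The mean of 150 skeletal muscle genes differed by -0.06, 0.16, 1.19, -0.09, 2.40, 0.98 and 0.90 in animals 1 to 7, and 125 of the 150 were higher in stretched tissue. Animals 3, 5, 6 and 7 thus had more muscle signal in the stretched piece, and animals 1 and 4 did not. Examples are Myh4, the fast myosin heavy chain (2.76 ± 0.71), and skeletal actin, Acta1 (2.22 ± 0.60). The mean of 46 white adipocyte genes differed by -0.43, 1.02, 1.05, 0.56, 0.63, 0.07 and 0.14 in animals 1 to 7, and all 46 were higher in the mean over animals. Animal 1 stood apart, with the lowest adipocyte mean in both pieces (8.66 shortened, 8.23 stretched, against 9.89 to 11.2 in the other animals). The adipocyte hormone gene Adipoq differed little (0.15 ± 0.12). Of 80 body position genes 34 were higher and 46 lower, with a median of -0.02, although Zic1, a zinc finger factor of axial patterning, was lower in 7 of 7 animals (-1.95 ± 0.27). A fit that added the means of the muscle and of the adipocyte list as covariates is given below as the value at equal muscle and fat signal. Muscle or fat signal differed in every pair, so that value comes from the model and not from matched pieces. Any part of these signals that changed with stretch itself would be taken out as well.

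Outside those 3 lists, 172 genes were higher and 531 lower in 7 of 7 animals. The 34 genes described next are the 10 of smallest p and the 10 of largest difference in each direction among them, some in both sets, which gave 18 higher and 16 lower genes. The same contrast chose them, so their p-values serve as a description.

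**Figure D1:**
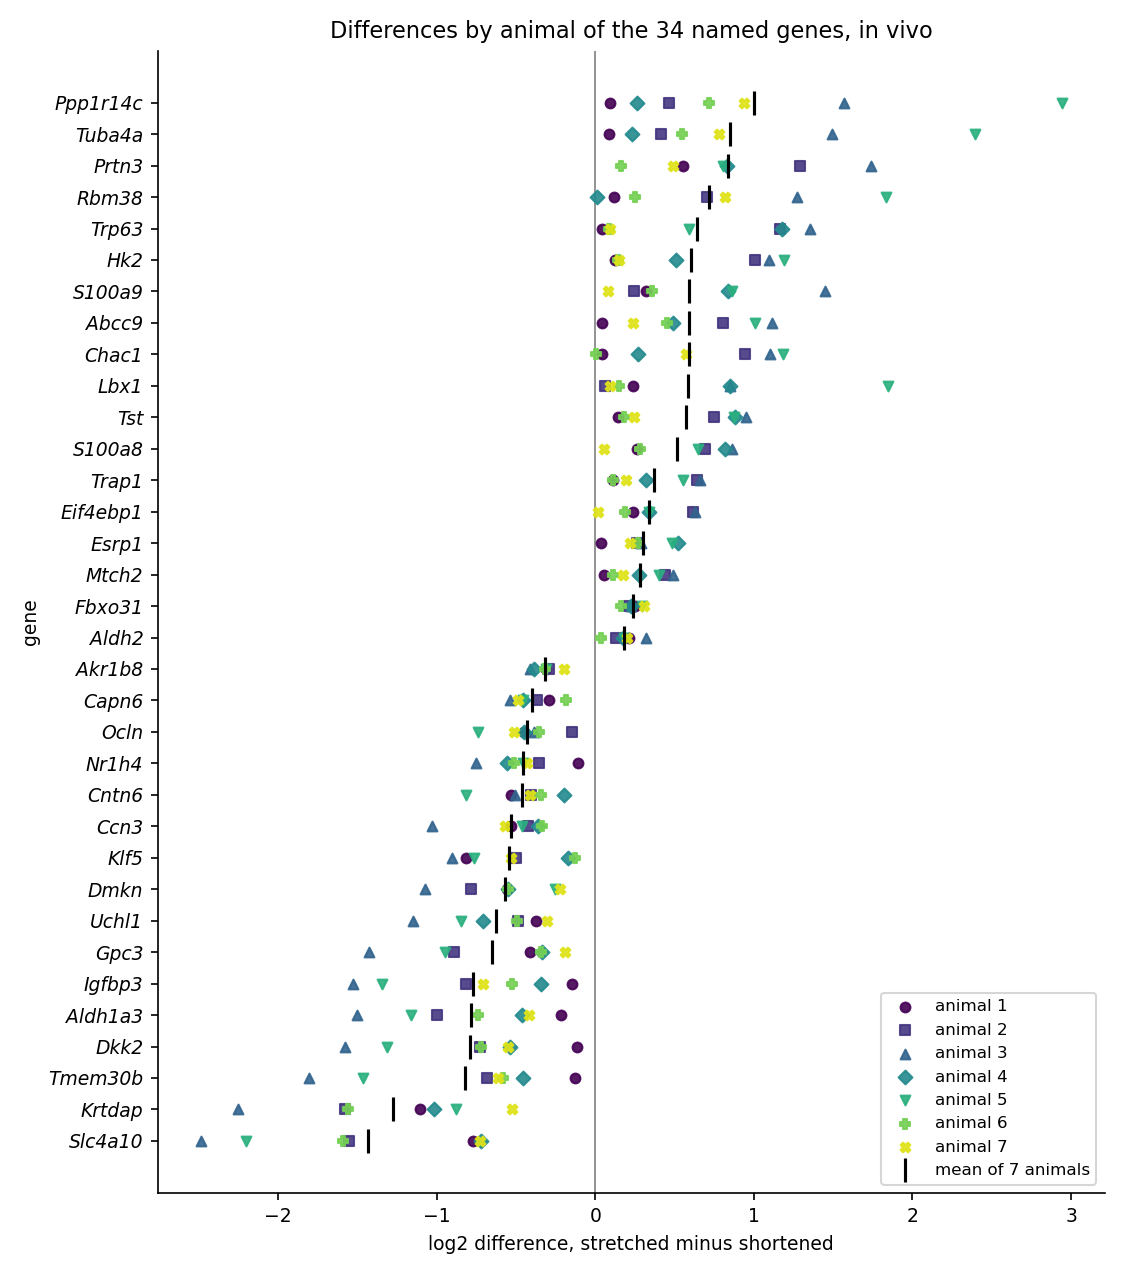
Log2 differences, stretched minus shortened (x axis), of the 34 named genes (y axis), with 1 symbol for each of the 7 animals and a bar at their mean. Animals can lie far apart, as with -2.49 for Slc4a10 in animal 3 and 2.94 for Ppp1r14c in animal 5, while those of Akr1b8 and Fbxo31 lie close together.

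The lower genes with the largest differences were Slc4a10 and Krtdap. Slc4a10, a sodium-coupled bicarbonate transporter, had signals of 7.05, 7.40 and 7.81 (lowest, median, highest) in shortened and 4.82, 6.01 and 7.04 in stretched tissue. The highest stretched piece lay just below the lowest shortened piece, so the groups did not overlap. Of 12393 genes 7 (0.0565%) had groups that did not overlap, all 7 of them lower in stretched tissue. Slc4a10 differed by -1.44 ± 0.22, a 2.70-fold lower signal (adjusted p = 0.153), and by -0.77 ± 0.19 at equal muscle and fat signal. In pieces of whole tissue, fewer cells of a type and less RNA per cell cannot be told apart.

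Krtdap, which encodes a secreted protein of differentiating keratinocytes, had signals of 8.44, 8.91 and 9.57 in shortened and 6.80, 7.48 and 8.47 in stretched tissue. The ranges overlapped only because shortened animal 4 lay just below stretched animal 1. The difference was -1.27 ± 0.17, or 2.42-fold (adjusted p = 0.153). At equal muscle and fat signal it was -1.11 ± 0.23. Dermokine, Dmkn, another secreted epidermal protein, ran from 10.43 to 10.76 in shortened tissue (median 10.57) and from 9.36 to 10.35 in stretched tissue (median 10.19), again without overlap. Dmkn differed by -0.57 ± 0.09 (adjusted p = 0.171) and by -0.54 ± 0.11 at equal muscle and fat signal.

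Krtdap and Dmkn are neighbours on chromosome 7, with 0 coding genes between them in the RefSeq table of GRCm38.p6, and both were lower in 7 of 7 animals. Their promoters are shown as the 250 bases before the annotated start, from RefSeq on GRCm38.p6, because neighbouring genes moved together here. The Krtdap window is chr7:30787655-30787904 and the Dmkn window chr7:30763506-30763755, both on the plus strand. Capitals mark matches, on either strand, to TATAAA (a core promoter box), TGANTCA (the AP-1 element) and TTGCNNAA (a C/EBP-type element).
Krtdap: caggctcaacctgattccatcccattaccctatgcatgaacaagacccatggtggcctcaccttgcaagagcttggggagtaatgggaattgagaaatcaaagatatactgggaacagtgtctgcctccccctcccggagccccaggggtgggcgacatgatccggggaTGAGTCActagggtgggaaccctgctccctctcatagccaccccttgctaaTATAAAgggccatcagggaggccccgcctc
Dmkn: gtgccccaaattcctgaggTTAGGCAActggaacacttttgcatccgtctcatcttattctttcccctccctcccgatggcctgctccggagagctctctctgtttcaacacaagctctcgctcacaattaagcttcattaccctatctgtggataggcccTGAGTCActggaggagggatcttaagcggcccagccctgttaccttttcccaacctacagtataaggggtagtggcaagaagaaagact
Each window held 1 TGANTCA match, and Krtdap also held 1 TATAAA. Of the 16 lower genes 13 had a promoter in the table, and 4 of these 13 (30.8%) held TGANTCA. Among the 12 higher genes with a promoter it was 1 (8.33%), and among all 27025 promoters 6.87%. TATAAA stood in 4 of 13 and 1 of 12 (3504 of all 27025 promoters), the GC box GGGCGG in 6 of 13 and 8 of 12 (32.9%), the E-box CANNTG in 7 of 13 and 7 of 12 (66.0%), and TTGCNNAA in 1 of 13 and 1 of 12 (9.55%). These are matches of letters, not binding sites.

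As a list, keratinocyte genes did not share the values of Krtdap and Dmkn, but most had low signals. The median level of the list was 4.79, against 7.89 over all genes, so a fall in many members could go unseen. Of 26 keratinocyte and hair follicle genes 15 were higher and 11 lower, with a median of 0.03, and at an unadjusted p under 0.05 there were 2 higher (all genes 9.08%) and 2 lower (12.9%). The higher ones were Trp63 and the keratin gene Krt79 (0.47 ± 0.14, higher in 6 of 7 animals). The keratin pair of basal epidermis, Krt5 (5.46 in shortened and 5.66 in stretched tissue) and Krt14 (4.91 and 5.07), differed by 0.19 ± 0.15 and 0.16 ± 0.12. Besides Krtdap, the brightest members in shortened tissue were Krt10 (8.27), the junction gene E-cadherin, Cdh1 (6.29), and Perp (6.22). They differed by -0.03 ± 0.12, -0.48 ± 0.17 and -0.21 ± 0.11, each with 2 of 7 animals higher. Trp63, the transcription factor of basal epithelial cells, went the other way, with differences of 0.04, 1.16, 1.35, 1.18, 0.59, 0.09 and 0.09 in animals 1 to 7. Its mean of 0.64 ± 0.18 thus came from animals 2 to 5, and it was 0.35 ± 0.12 at equal muscle and fat signal. Among the 3 Trp63 probes the differences were 0.64, 0.39 and 0.03. Ocln, a tight junction gene with low signals (3.74 to 4.76 over all pieces), differed by -0.43 ± 0.07. Esrp1, an epithelial splicing factor with signals of 3.14 to 4.17, differed by 0.30 ± 0.06.

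**Figure D2:**
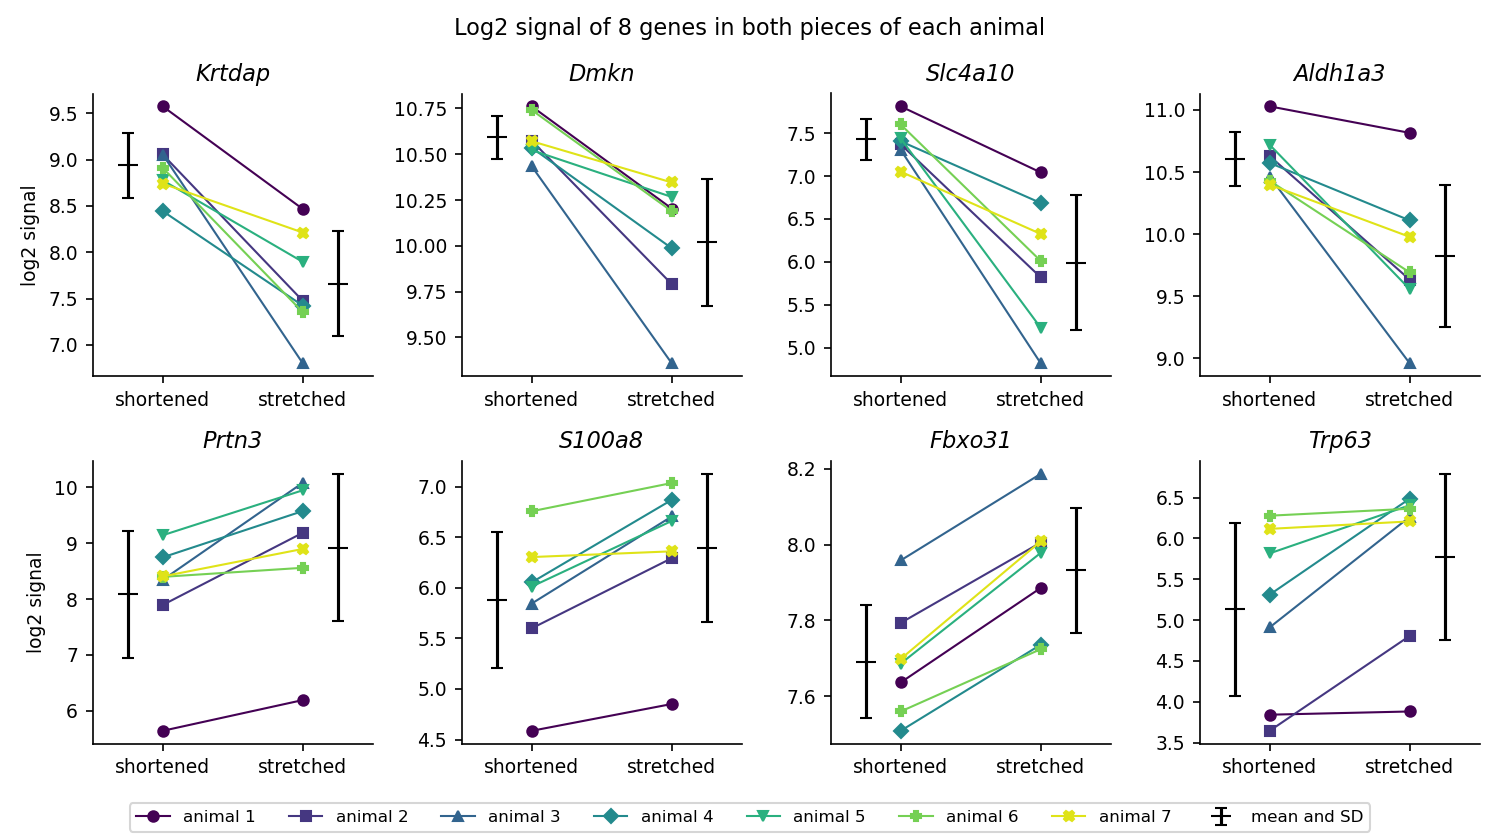
Log2 signal (y axis) of 8 genes in the shortened and the stretched piece (x axis) of each animal, joined by lines, with the mean and SD of the 7 pieces at the sides. All lines of Krtdap, Dmkn, Slc4a10 and Aldh1a3 run down and those of the other 4 genes run up, and animal 1 lies far below the rest in Prtn3 and S100a8.

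Genes of retinoid, Wnt and growth factor signalling were among the lower genes too. Aldh1a3, which makes retinoic acid, ran from 10.40 to 11.03 in shortened and from 8.96 to 10.82 in stretched tissue. The groups overlapped through animal 1, whose difference was only -0.21 against -1.50 in animal 3. The mean difference was -0.79 ± 0.14, and the other Aldh1a3 probes gave -0.87 and -0.67. Igfbp3, which binds insulin-like growth factors, differed by -0.77 ± 0.15, the secreted Wnt modulator Dkk2 by -0.79 ± 0.15, and the glypican gene Gpc3 by -0.65 ± 0.14. Tmem30b, a subunit of lipid flippases, differed by -0.82 ± 0.18. All 5 kept under 0.5 of their difference at equal muscle and fat signal, with -0.35 ± 0.10 for Aldh1a3, -0.26 ± 0.09 for Igfbp3, -0.29 ± 0.10 for Dkk2, -0.30 ± 0.14 for Gpc3 and -0.23 ± 0.13 for Tmem30b.

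Other lower genes had smaller differences, of which that of Akr1b8 was the most even between animals. Akr1b8, an aldo-keto reductase, differed by -0.31, -0.29, -0.41, -0.39, -0.31, -0.31 and -0.20 in animals 1 to 7. Its mean of -0.32 ± 0.04 was -0.30 ± 0.06 at equal muscle and fat signal. Ccn3, a matricellular protein of the CCN family, differed by -0.53 ± 0.08 on one probe and -0.53 ± 0.10 on the other, and by -0.44 ± 0.12 at equal signal. The transcription factor gene Klf5 had -0.55 ± 0.10 and, at equal signal, -0.45 ± 0.15. Its second probe gave -0.18 ± 0.07. Capn6, a calpain without protease activity (-0.40 ± 0.06), the bile acid receptor gene Nr1h4 (-0.45 ± 0.07), the neuronal ubiquitin hydrolase gene Uchl1 (-0.62 ± 0.10) and the neural adhesion gene Cntn6 (-0.46 ± 0.07, signals of 3.06 to 3.98) complete the 16.

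Of the higher genes, 3 are known from granulocytes. Prtn3, a serine protease of neutrophil granules, had signals of 5.64, 8.40 and 9.14 in shortened and 6.19, 9.19 and 10.08 in stretched tissue. The ranges overlapped widely, yet every animal was higher, by 0.16 to 1.74. Prtn3 differed by 0.84 ± 0.16, or 1.79-fold (adjusted p = 0.172), and by 0.55 ± 0.14 at equal muscle and fat signal. The calprotectin genes S100a8 and S100a9 differed by 0.52 ± 0.10 and 0.59 ± 0.15, and at equal signal by 0.35 ± 0.12 and 0.30 ± 0.19. Animal 1, lowest in the adipocyte list, was also lowest in both pieces for Prtn3 (5.64 and 6.19), S100a8 (4.59 and 4.85) and S100a9 (4.20 and 4.52).

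The neutrophil list as a whole was divided. Of 16 members, Prtn3, S100a8 and S100a9 included, 9 were higher and 7 lower, with a median of 0.08. At an unadjusted p under 0.05 there were 6 higher (all genes 9.08%) and 1 lower. Prtn3, S100a8 and S100a9 are among the 6 and were chosen for being higher, so these counts include that choice. The siderophore-binding protein gene Lcn2 (0.40 ± 0.16) and the collagenase gene Mmp8 (0.28 ± 0.10) were higher in 6 of 7 animals. Chil3, a chitinase-like protein gene, was the remaining one of the 6 (0.19 ± 0.08, higher in 5 of 7). Myeloperoxidase, Mpo, had 0.13 ± 0.07 (higher in 6 of 7) and lactoferrin, Ltf, 0.17 ± 0.12 (5 of 7). Granule genes Elane (-0.02 ± 0.10), Camp (-0.05 ± 0.09) and Ngp (-0.06 ± 0.14) and the receptor gene Cxcr2 (0.03 ± 0.07) differed by less than their errors. The decoy receptor gene Il1r2 was lower (-0.20 ± 0.07).

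S100a8 and S100a9 are neighbours too, on chromosome 3, with 0 coding genes between them, and are shown for the same reason. The S100a8 window is chr3:90668821-90669070 on the plus strand and the S100a9 window chr3:90695722-90695971 on the minus strand, with capitals as above.
S100a8: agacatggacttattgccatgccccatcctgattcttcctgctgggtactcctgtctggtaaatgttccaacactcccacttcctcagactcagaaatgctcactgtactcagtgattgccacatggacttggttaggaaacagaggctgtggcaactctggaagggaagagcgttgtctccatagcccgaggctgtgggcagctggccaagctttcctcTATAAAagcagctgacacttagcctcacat
S100a9: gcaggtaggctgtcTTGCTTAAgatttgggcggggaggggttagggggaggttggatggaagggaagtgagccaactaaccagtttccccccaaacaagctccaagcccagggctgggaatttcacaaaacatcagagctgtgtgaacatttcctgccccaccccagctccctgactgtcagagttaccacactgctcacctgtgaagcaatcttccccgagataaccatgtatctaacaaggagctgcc
S100a8 held 1 TATAAA and S100a9 held 1 TTGCNNAA match, and in neither window was there a TGANTCA.

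Some of the higher genes had much smaller differences with the muscle and adipocyte signal in the fit. Ppp1r14c, an inhibitor of protein phosphatase 1, differed by 0.09, 0.47, 1.57, 0.26, 2.94, 0.72 and 0.94 in animals 1 to 7, so animals 3 and 5 were highest, as in the muscle list. Its mean of 1.00 ± 0.29 was 0.07 ± 0.13 at equal muscle and fat signal. The alpha-tubulin gene Tuba4a (0.85 ± 0.24), the RNA-binding protein gene Rbm38 (0.71 ± 0.20) and Lbx1 (0.58 ± 0.20), a homeobox factor of migrating muscle precursors, had 0.06 ± 0.10, 0.07 ± 0.14 and 0.11 ± 0.22 in that fit. Lbx1 did not follow the muscle list in every animal, with 0.85 in animal 4, where that list differed by -0.09. With the muscle covariate alone Prtn3 had 0.82 and Trp63 0.68, close to their values without it. The adipocyte covariate alone gave 0.49 and 0.22. With both covariates hexokinase 2, Hk2, the first enzyme of glycolysis, went from 0.60 ± 0.15 to 0.17 ± 0.11. Chac1, a glutathione-degrading enzyme, went from 0.59 ± 0.15 to 0.12 ± 0.13. Abcc9, a potassium channel subunit of pericytes and muscle, went from 0.59 ± 0.13 to 0.20 ± 0.09. Hk2, Chac1 and Abcc9 had 0.40, 0.33 and 0.38 with the muscle covariate alone, and 0.27, 0.27 and 0.31 with the adipocyte covariate alone.

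The most even of the higher genes were Fbxo31 and Aldh2. Fbxo31, a subunit of a ubiquitin ligase, differed by 0.25, 0.21, 0.23, 0.23, 0.29, 0.16 and 0.31 in animals 1 to 7. Fbxo31 had a mean of 0.24 ± 0.04 and of 0.23 ± 0.08 at equal muscle and fat signal. Mitochondrial aldehyde dehydrogenase, Aldh2, differed by 0.18 ± 0.04 and by 0.16 ± 0.05 in that fit. The mitochondrial sulfurtransferase gene Tst (0.57 ± 0.11), the mitochondrial chaperone gene Trap1 (0.37 ± 0.08), the outer membrane carrier gene Mtch2 (0.28 ± 0.06) and the translation inhibitor gene Eif4ebp1 (0.34 ± 0.07) had 0.30 ± 0.10, 0.17 ± 0.07, 0.13 ± 0.05 and 0.23 ± 0.07. These 4 were less even between animals, for example 0.14 to 0.95 for Tst and 0.02 to 0.63 for Eif4ebp1. Further probes did not always give the same size. The 5 other Mtch2 probes had 0.02 to 0.15, the other Lbx1 probe 0.11, the other Tuba4a probes 0.68 and 0.09, and the other Aldh2 probes 0.10 and 0.23.

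All 34 genes kept their direction at equal muscle and fat signal, by different amounts. Of the 16 lower genes 8 kept at least 0.75 of their difference and 5 kept under 0.5. Of the 18 higher genes 2 kept at least 0.75 and 9 kept under 0.5. The median of the lower genes was -0.60 without and -0.35 with both covariates, and that of the higher genes 0.59 and 0.18. Of all genes 4919 of 6856 lower and 3409 of 5537 higher ones kept their direction. Among genes alike in 7 of 7 animals outside the 3 lists, 530 of 531 lower and 166 of 172 higher ones did. The 34 were drawn from these, so their direction was largely fixed by that choice. With both covariates 0 probes were called (smallest adjusted p 0.291), and 1061 had an unadjusted p under 0.05.

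**Figure D3:**
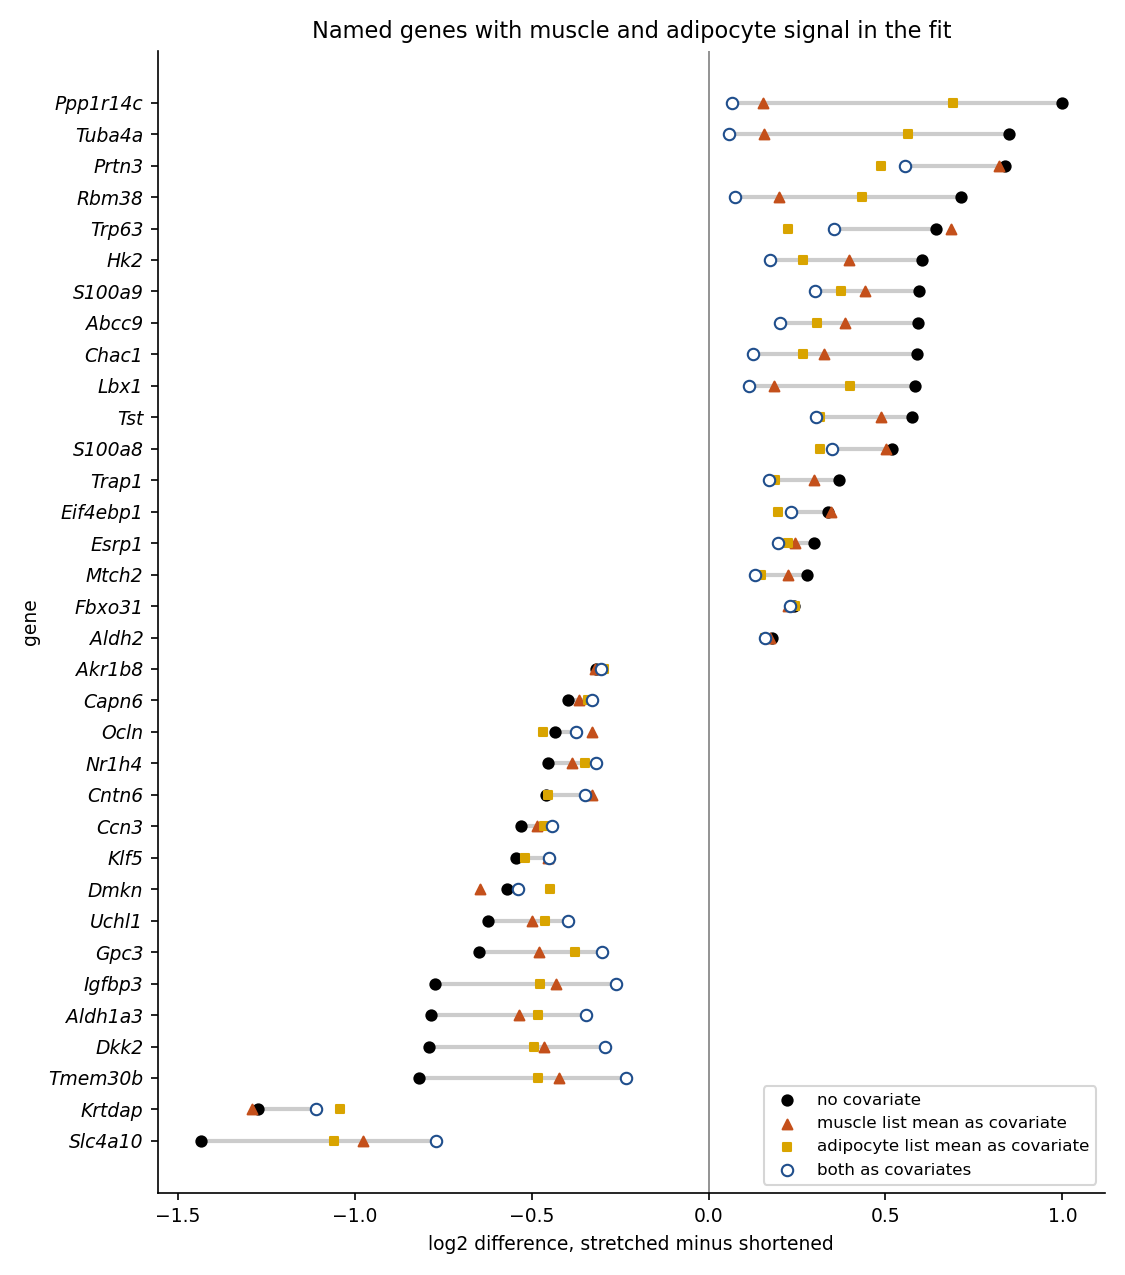
Log2 difference, stretched minus shortened (x axis), of the 34 named genes (y axis) in the fit without a covariate and with the muscle list mean, the adipocyte list mean or both added. Ppp1r14c moves from 1.00 to 0.07 with both, while Krtdap (-1.27 to -1.11), Akr1b8 (-0.32 to -0.30) and Fbxo31 (0.24 to 0.23) hardly move.

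Gene lists of cell types and pathways are described by counts and medians. In none of the 40 lists did a member pass the test. Schwann cell and nerve genes, which wrap and guide the small nerves of the tissue, had 14 of 16 lower and a median of -0.25. From animal 1 to animal 7 the mean of these genes differed by -0.63, -0.15, -0.23, -0.17, -0.58, 0.15 and -0.27, with animal 6 alone above 0. The adhesion gene Cadm4 (-0.64 ± 0.15) and the myelin gene Pmp22 (-0.25 ± 0.07) had the smallest p. This median was -0.28 at equal muscle and fat signal.

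Other cell type lists had medians nearer to 0 in that fit. Fibroblast genes had 24 of 26 lower with a median of -0.13, and -0.03 at equal signal. Pi16 (-0.42 ± 0.10) and Cd248 (-0.25 ± 0.06), markers of fascia fibroblasts and of stromal cells, had the smallest p. Macrophage genes had 26 of 26 lower and a median of -0.15, against -0.02. Blood endothelial genes had 20 of 21 higher and a median of 0.32, against -0.05, and pericyte genes 7 of 9 higher and 0.33, against -0.08. From animal 1 to animal 7 the endothelial mean differed by -0.39, 0.60, 0.91, 0.49, 0.43, 0.38 and -0.34, lower in animal 1, as was the adipocyte list, but also in animal 7, where the adipocyte list was not. Against its list, the angiopoietin receptor gene Tek was lower in 7 of 7 animals (-0.32 ± 0.08). With the adipocyte list alone as a covariate the endothelial median was -0.03.

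Genes of matrix and of growth signals lay mostly below 0 by small amounts. Wnt and hedgehog genes had 22 of 28 lower and a median of -0.15, and their list mean was lower in 7 of 7 animals, with differences from -0.28 to -0.02. Of these, 12 had an unadjusted p under 0.05 in the lower direction and 4 in the higher (all genes 12.9% and 9.08%). Besides Dkk2, the Wnt receptor gene Fzd2 had -0.37 ± 0.08. Proteoglycan and matricellular genes had 21 of 29 lower (median -0.13), with Gpc3 and its relative Gpc6 (-0.46 ± 0.09) of smallest p. TGF-beta and BMP genes had 22 of 29 lower (median -0.06), among them Bmp4 (-0.31 ± 0.07) and the activin inhibitor follistatin, Fst (-0.20 ± 0.05). Collagen synthesis and crosslinking genes had 21 of 27 lower (median -0.10). Of these 27, 14 had an unadjusted p under 0.05 in the lower direction and 1 in the higher (all genes 12.9% and 9.08%). Matrix proteases and inhibitors had 17 of 22 lower (median -0.08), with Timp3, an inhibitor bound to the matrix, at -0.25 ± 0.07. The growth factor gene Fgf18 differed by -0.50 ± 0.10 in a list with 13 higher and 14 lower. At equal muscle and fat signal these medians ran from -0.09 to -0.02.

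Immune signals went both ways. Interferon-induced genes had 20 of 21 lower and a median of -0.12 (-0.05 at equal signal), with Ifit2 at -0.32 ± 0.08 and Usp18, which damps interferon signalling, at -0.21 ± 0.05. Cxcl9, a chemokine induced by interferon-gamma, was higher. Its differences were 1.37, 1.64, 1.49, 1.14, 1.20, -0.04 and 0.04 in animals 1 to 7, above 1 in animals 1 to 5 and near 0 in animals 6 and 7. Cxcl9 differed by 0.98 ± 0.21 (adjusted p = 0.172) and by 0.86 ± 0.27 at equal signal. The alarmin gene Il33 was lower in 7 of 7 animals (-0.53 ± 0.14), and had -0.10 at equal signal. Cytokine and chemokine genes as a list had 12 of 31 higher and a median of -0.04. Il6, an inflammatory cytokine, differed by -0.03 ± 0.12.

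Genes that respond early to load showed no shared direction. Among 24 immediate early genes 16 were higher, with a median of 0.03, and Fos and Egr1 differed by 0.19 ± 0.15 and 0.10 ± 0.09. Fos was higher in 6 of 7 animals, with -0.81 in animal 5. At equal muscle and fat signal the list median was 0.09, and Fos and Egr1 had 0.44 ± 0.17 and 0.17 ± 0.13. CCN and YAP target genes had 10 of 17 higher and a median of 0.03, and Ccn2, a matricellular gene induced by tension, had 0.18 ± 0.16. Acta2, which encodes smooth muscle actin and marks myofibroblasts, had 0.16 ± 0.19, while Tgfb1 differed by -0.03 ± 0.09, Col1a1 by -0.12 ± 0.05 and Col3a1 by -0.03 ± 0.03. The other Col1a1 probe gave -0.03 ± 0.09 and the other Col3a1 probe -0.13 ± 0.06. In a fit with the adipocyte covariate Ccn2 and Acta2 changed sign, to -0.13 and -0.11. Actin cytoskeleton and focal adhesion genes had 21 of 25 lower, with a median of -0.06.

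Oxidative phosphorylation genes had the largest median of the pathway lists by size. They were higher in 35 of 35 members, with a median of 0.20, and 30 of the 35 had an unadjusted p under 0.05 (all genes 9.08%). At equal muscle and fat signal the median was 0.00. Other housekeeping lists lay closer to 0. Cytosolic ribosomal protein genes were lower in 28 of 28 (median -0.05, and -0.01 at equal signal). Medians were -0.05 for the unfolded protein response, 0.04 for heat shock and proteasome, -0.02 for the cell cycle, 0.04 for cholesterol synthesis and 0.00 for glucocorticoid-induced and clock genes. In the last of these Dbp, an output gene of the clock, was lower in 7 of 7 animals (-0.29 ± 0.06).

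**Figure D4:**
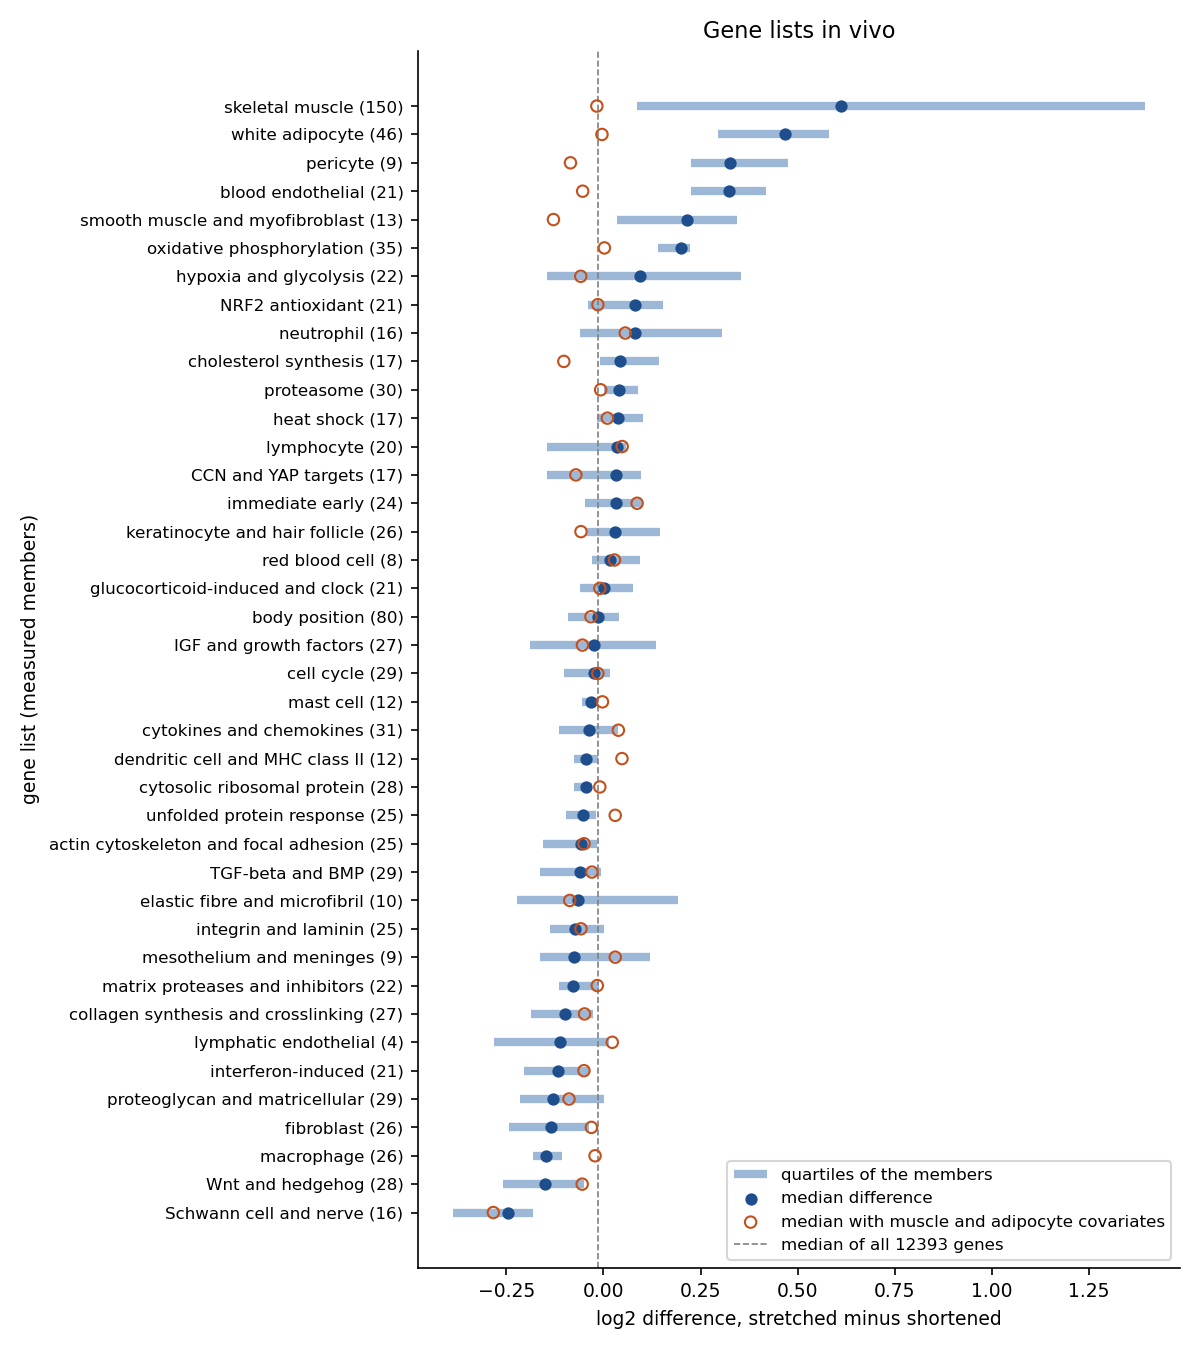
Median log2 difference, stretched minus shortened (x axis), of each of 40 gene lists (y axis, with measured members), with bars from the lower to the upper quartile of members and open circles for the median with the muscle and adipocyte covariates. Skeletal muscle (0.61) and white adipocyte (0.47) lie highest and Schwann cell and nerve (-0.25) lowest, and most open circles sit near 0 apart from the last, at -0.28. The means of the muscle and adipocyte lists are the covariates, so the open circles of these lists lie near 0 by construction.

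Ex vivo tissue gave values of the same genes in animals that took no part in choosing them. Of the 18 higher genes 13 were also higher ex vivo, with a median of 0.06, where 56.1% of all genes higher in vivo were. Of the 172 genes from which the 18 were drawn, 112 were also higher ex vivo, with the same median of 0.06. Fbxo31 (0.39 ± 0.10), Tuba4a (0.53 ± 0.13), Trp63 (0.33 ± 0.12) and Rbm38 (0.43 ± 0.21) were higher in 4 of 4 ex vivo animals. The skeletal muscle list was higher ex vivo too, in 129 of 150 members with a median of 0.55, and Myh4 differed by 4.07 ± 1.15 (higher in 4 of 4). Its part in the ex vivo values of these genes was not tested. Of the 16 lower genes 6 were also lower ex vivo, with an ex vivo median of 0.16, where 50.6% of all genes lower in vivo were. Of the 531 genes from which the 16 were drawn, 273 were also lower ex vivo, with a median of -0.01. Aldh1a3 was higher in 4 of 4 ex vivo animals (0.45 ± 0.13), and Krtdap (0.40 ± 0.31), Dmkn (0.54 ± 0.29) and Akr1b8 (0.38 ± 0.20) in 3 of 4. None of the 34 passed in the ex vivo fit (smallest adjusted p 0.363, limma, n = 4 animals).

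The difference of the stretch effect between the settings was tested over all 22626 probes, and 40 (0.177%) were called, while 3460 (15.3%) had an unadjusted p under 0.05. The number called, 40 with all animals, rose to 663 without animal 1 and 331 without animal 4 of the ex vivo setting. It was 0 to 8 without any other animal. None of the 34 genes was among the 40. The smallest adjusted p of the 34 was that of Aldh1a3 (0.0523), which differed by -1.23 ± 0.22 between the settings. Krtdap had -1.68 ± 0.37 (adjusted p = 0.0788). As the in vivo values chose the genes, these differences include that choice.

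**Figure D5:**
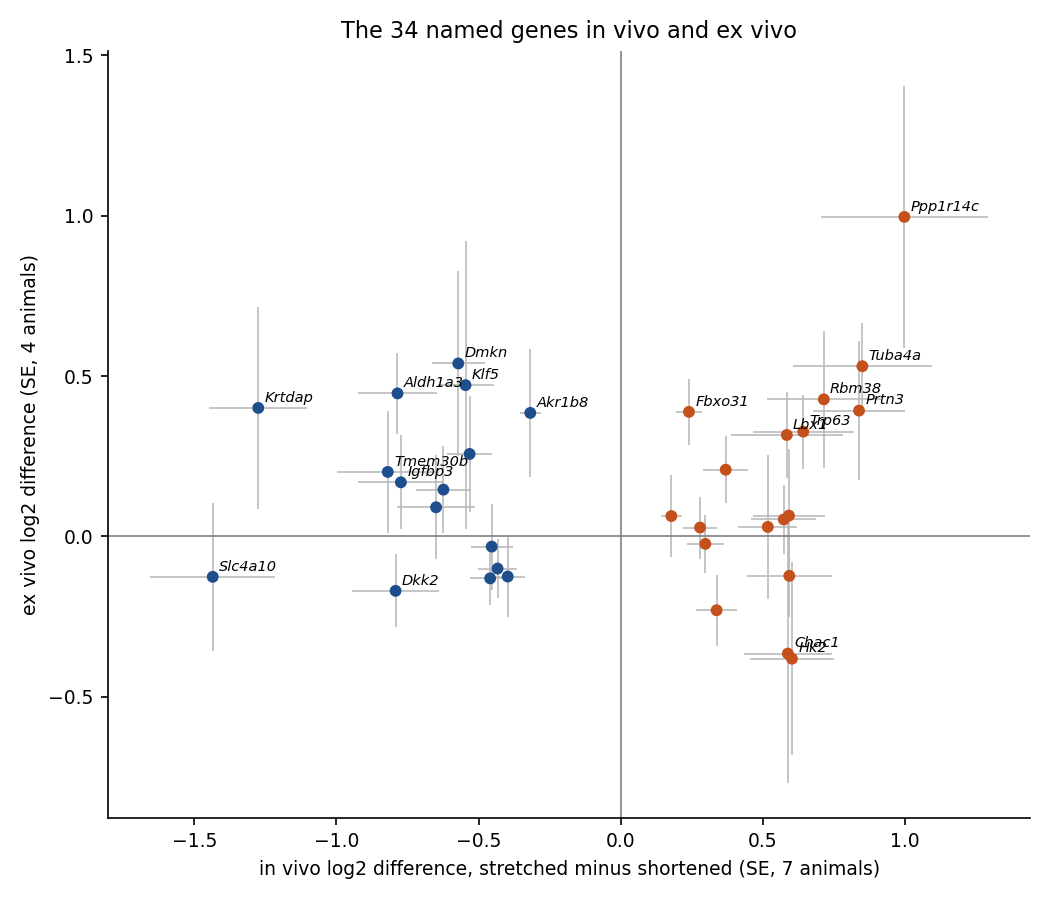
Log2 difference, stretched minus shortened, of the 34 named genes in vivo (x axis, 7 animals) and ex vivo (y axis, 4 animals), with SE as bars, genes higher in vivo in orange and lower in blue. Most orange points lie above 0 ex vivo, and so do 10 of the 16 blue ones, among them Aldh1a3 (0.45) and Krtdap (0.40).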

How the data were processed

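Arrays of 14 in vivo samples were analysed, with the 8 ex vivo samples for 1 comparison. The deposited values are log2 signals that the authors made with RMA and affy, per the submitters' processing notes (no versions given), and ran from 1.89 to 14.4. Background and normalization settings are not given in the sources used here. In vivo and ex vivo arrays had medians of 7.28 to 7.41 and 6.85 to 6.90, so the in vivo samples were fitted alone, and only the test between settings used all 22, with animals as blocks. Precision is limited by how many arrays there were.

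Of 22690 probes 64 controls were left out. Probes with 1 gene symbol numbered 20380, with several 691 and with none 1555, by the supplied platform annotation. A gene is its probe of highest mean in vivo. Fits used limma 3.58.1 in R 4.3.3 (lmFit, eBayes with trend, Benjamini-Hochberg over all probes, threshold 0.05) and were tested on simulated data. Samples with 1 number are 1 animal, as the series design compares within animals, and deviations correlated within an animal with r of 0.385 to 0.867, the highest r being with the own partner for 5 of 7 animals (not animals 5 and 7). No samples were identical. Covariates were the means of the muscle and adipocyte lists.

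Named genes outside the 3 lists were, per direction, the 10 of smallest p and 10 of largest difference (unadjusted p under 0.05) among those alike in 7 of 7 animals, then 2 of each list by p and 8 set genes. Keratinocyte, neutrophil and collagen markers named besides were chosen after their values were seen. Members and lists were chosen with earlier results of these data known. Alternatives covered normalization, filters, eBayes settings, array weights, block, covariates and animals left out.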

Additional observations from a re-analysis of the deposited data

Results flagged for a closer look

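Pieces that lay far from the other 6 of their group, and animals whose difference did, were looked for in 178 sets of 7 values, and 22 (12.36%) stood out by Dixon's criterion, where chance gives about 1 in 20. Animal 1 was far below the other stretched pieces in Tst (7.18), Hk2 (8.47), Trap1 (8.83), Eif4ebp1 (10.23), Mtch2 (10.01), S100a8 (4.85), Prtn3 (6.19), Acta2 (9.21), Ccn2 (6.90) and Adipoq (10.93), and below the other shortened pieces in Prtn3 (5.64) and Adipoq (11.58). This is the animal of lowest adipocyte signal in both pieces, and its part in these values was not tested beyond the covariate fits.

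Animal 3 had the lowest difference of Ccn3 (-1.03) and the lowest stretched signals of Ccn3 (7.12) and Akr1b8 (9.94). Animal 5 had the highest shortened signal of Cntn6 (3.98), the lowest difference of Fos (-0.81), the highest mean difference of the keratinocyte and hair follicle list (0.32) and the lowest of the TGF-beta and BMP list (-0.14). Animal 7 had the highest difference of Tgfb1 (0.60), animal 6 the lowest shortened signal of Col3a1 (13.56) and animal 4 the highest stretched signal of Il6 (6.80).

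Some named genes stood out in their stretch effect between the settings, and of these only Lyve1 passed the test. Lyve1, the hyaluronan receptor of macrophages and lymphatic vessels, passed the limma test of the difference (1.70 in vivo minus ex vivo, adjusted p = 0.0140), with -0.28 in vivo and -1.97 ex vivo. The call was lost without in vivo animal 2 and without ex vivo animal 3. The settings had different median signals (7.28 to 7.41 in vivo, 6.85 to 6.90 ex vivo), and whether they were normalized together is not given in the sources used here. Aldh1a3 (-1.23, adjusted p = 0.0523), Bmp4 (-0.79, adjusted p = 0.0592), Bmp1 (-0.61, adjusted p = 0.0802) and Fst (-0.27, adjusted p = 0.119) were lower in 7 of 7 animals in vivo and higher in 4 of 4 ex vivo, and did not pass it.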

How the results depend on the processing

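In each of the 22 alternatives 0 probes were called in vivo, with smallest adjusted p from 0.0661 (array weights) to 0.890 (muscle covariate). The number at an unadjusted p under 0.05, 4373 as reported, was 1080 with no replicate block, 958 with the muscle covariate, 1342 with the adipocyte covariate, 1061 with both, 2875 without animals 5 and 6, 1981 in animals 1 to 3 and 2157 in animals 4 to 7. Leaving out 1 animal gave 2582 to 5368. The last 3 of the named alternatives use fewer samples, and the cause was not tested for the others.

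As no probe was called under these alternatives, no gene value could change its side of the threshold. Genes with 1 direction in every animal could also not turn when animals were left out. Much of the following count was therefore fixed in advance. Of 2424 gene values under alternatives 2395 kept their direction and their side of the threshold, and 29 turned. With both covariates these were Pdpn (0.021), Batf3 (0.010), Tgfb1 (0.0017), Col3a1 (0.038), Il6 (0.10), Adipoq (-0.17), Acta2 (-0.13), Ccn2 (-0.14), Synpo2 (-0.028) and Mcam (-0.028). With the adipocyte covariate they were Batf3 (0.014), Tgfb1 (0.0098), Col3a1 (0.0066), Adipoq (-0.16), Acta2 (-0.11), Ccn2 (-0.13) and Mcam (-0.021), and with the muscle covariate Col3a1 (0.016) and Il6 (0.17). Adipoq belongs to the adipocyte list whose mean is the covariate, so its value in these fits follows in part from that. Il6 was also turned by the Gapdh covariate (0.026), without animals 5 and 6 (0.10), in animals 1 to 3 (0.16) and without animal 5 or 7, with a range of -0.10 to 0.065 over animals left out. Tgfb1 turned without animals 5 and 6 (0.034) and without animal 6 (0.0023), Alas2 in animals 1 to 3 (-0.090), and Tfrc in animals 4 to 7 (-0.0089) and over the mean of its probes (-0.059). Of the list medians 910 moved by less than the spread of animals and 10 by more. That spread is the SD over animals of a list's median, so a wide one lets a median change sign uncounted. With both covariates the blood endothelial median went from 0.32 to -0.05 and the pericyte median from 0.33 to -0.08. The SD over animals of these list means was 0.49 and 0.40. The count therefore cannot show that the medians were stable.

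Probes called for the difference between settings, 40 as reported, numbered 5 after quantile normalization of all arrays, 4 with no mean-variance trend, 71 with the muscle covariate and 3 with no replicate block, and 0 to 663 without 1 animal.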

Other observations

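Besides Slc4a10, Dmkn and Cntn6, further genes had shortened and stretched groups that did not overlap. They were Rpl39l (-0.53 ± 0.10), Ifitm1 (-0.34 ± 0.07), Stx4a (-0.15 ± 0.05) and the mast cell IgE receptor subunit gene Fcer1a (-0.26 ± 0.07). They were chosen after their values were seen. Groups without overlap need not be even between animals, as Fcer1a differed by -0.03 in animal 1 and -0.58 in animal 3. The mast cell list as a whole had 10 of 12 lower and a median of -0.03.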
